A study of Mus musculus with 24 samples.

Results

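The genes described here are 8 endothelial genes of the mouse, taken from a table of 54532 genes by matching the gene identifiers of the files to symbols in GENCODE release M21. The 4 inducible adhesion molecules are Icam1, Vcam1, Sele and Selp, and the 4 constitutive endothelial genes are Pecam1, Cdh5, Kdr and Tie1. All 8 were found, each by 1 identifier, in each of the 24 samples. RNA-Seq was performed on tissue of Trex1-KO mice (heart, stomach, tongue and muscle), which lack a DNA exonuclease and are used as a lupus-like model driven by the cGAS-STING pathway. The mice were on a C57BL/6J background and were 1 month old when treatment began. Each tissue had 3 vehicle samples, which the labels call untreated, and 3 samples of mice given the STING antagonist SN-011. The labels give the SN-011 schedule as 5 mg/kg, 3 times a week for 4 weeks, whereas the study's methods describe daily injection over a shorter period at a higher dose. All groups lacked Trex1, so no wild-type level stood beside these values.

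Endothelial cells line blood vessels and hold leukocytes back or let them through. Under cytokine signals such as TNF and IL-1, NF-kB raises the transcription of adhesion molecules: the selectins Sele and Selp catch rolling leukocytes, and the immunoglobulin-type receptors Icam1 and Vcam1 bind leukocyte integrins for firm arrest. Pecam1 and Cdh5 (VE-cadherin) hold endothelial junctions together, and Kdr (the main VEGF receptor) and Tie1 (an orphan receptor of the angiopoietin system) are receptor kinases kept on in resting vessels, so their level in a whole tissue is often read as a measure of vessel content. Selp is also stored in platelets, and Vcam1 and Icam1 are also made by stromal, muscle and immune cells.

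The start regions of 3 members are shown as examples. In the 5 windows that could be read, the 3 NF-kB forms searched did not follow the split into inducible and constitutive genes. This is given below for Kdr and Sele. Other NF-kB forms were not searched, so a window without a match may still hold one, and the split is not decided here. Promoter windows from 250 bases before to 50 bases after the start were read from RefSeq (GRCm38.p6), which held 5 of the 8 members (Icam1, Sele, Selp, Kdr and Tie1). The windows of Icam1 (chr9:21015690-21015989, + strand) and Selp (chr1:164115014-164115313, + strand) are printed 5′ to 3′ with NF-kB-type letters in capitals. The window of Tie1 (chr4:118489800-118490099, - strand) is printed with the ETS-type letters AGGAAG, read on either strand, in capitals.
Icam1: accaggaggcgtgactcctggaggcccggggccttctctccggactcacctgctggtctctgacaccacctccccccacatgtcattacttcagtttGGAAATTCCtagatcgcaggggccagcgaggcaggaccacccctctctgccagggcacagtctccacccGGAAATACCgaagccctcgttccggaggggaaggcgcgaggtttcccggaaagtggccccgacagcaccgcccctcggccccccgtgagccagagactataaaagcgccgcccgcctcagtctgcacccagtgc
Selp: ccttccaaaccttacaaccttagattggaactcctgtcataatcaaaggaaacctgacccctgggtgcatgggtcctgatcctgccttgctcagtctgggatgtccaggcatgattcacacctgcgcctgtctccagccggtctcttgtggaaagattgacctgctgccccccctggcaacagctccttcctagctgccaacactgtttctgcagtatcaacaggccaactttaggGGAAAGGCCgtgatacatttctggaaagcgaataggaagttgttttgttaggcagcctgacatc
Tie1: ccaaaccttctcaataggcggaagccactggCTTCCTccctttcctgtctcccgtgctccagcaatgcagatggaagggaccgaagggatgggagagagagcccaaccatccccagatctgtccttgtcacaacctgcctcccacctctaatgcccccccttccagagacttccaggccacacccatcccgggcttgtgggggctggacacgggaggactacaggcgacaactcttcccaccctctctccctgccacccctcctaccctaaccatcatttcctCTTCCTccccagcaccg
The Icam1 window held GGAAATTCC at -153, letters found in 0.317% of 32817 windows, and GGAAATACC at -84, a match on the minus strand to GGNNTTTCC. The form GGNNTTTCC, which also matches the first Icam1 site, was in 5.83% of windows. The Selp window held GGAAAGGCC at -14, again GGNNTTTCC on the minus strand. Any of the 3 NF-kB forms searched (these 2 and the NF-kB consensus, on both strands) was in 12.8% of windows, and among the other members matched it was in the window of Kdr and not in those of Sele and Tie1. AGGAAG or its complement was in 35.4% of windows and stood at -219 and +34 in Tie1, at -64 and +20 in Selp and at -65 in Sele. A match describes these letters only.

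Totals per sample were 14253416 to 18443329 counts, and 3 counts corresponded to 0.163 to 0.210 CPM. Some libraries stood apart. Xist was counted 3060 to 13811 times in the 4 libraries of vehicle replicate 1 and at most 20 times in the other 20, so that vehicle replicate was from female tissue and the rest from male tissue. In muscle SN-011 replicate 2, 11546 genes had a count, against 19798 to 24264 in the rest. The tongue library of vehicle replicate 1 had a summed level of 1403 CPM for 24 further endothelial genes, against 501 to 953 CPM in the other tongue libraries. In vehicle replicate 2, genes of the gastric epithelium summed to 1085 CPM in heart, 426 in muscle and 1510 in tongue. They summed to 0.0 to 33.8 CPM in the SN-011 libraries of these 3 tissues. The lowest vehicle sums were 11.3 CPM in heart, 30.5 in muscle and 43.9 in tongue. The highest SN-011 sums were 33.8, 16.1 and 19.4 CPM, so in muscle and tongue every vehicle library lay above every SN-011 library.

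The first comparison asked how much of each member a tissue held without treatment. Levels are given as CPM after scaling all 24 samples together. The 4 constitutive genes had the same order of means in every case, heart above muscle, tongue and stomach. Cdh5 (chr8:104101625-104144511, + strand) was at 212 ± 10.7 CPM in the heart (SD, n = 3), 142 ± 9.54 in muscle, 51.5 ± 33.1 in the tongue and 9.46 ± 1.81 in the stomach. Tie1 (chr4:118471191-118490061, - strand) was at 136 ± 11.04, 72.2 ± 4.24, 36.7 ± 19.3 and 7.13 ± 2.37 CPM in the same order. The heart held 22.4-fold more Cdh5 and 19.0-fold more Tie1 than the stomach (edgeR, joint model, adjusted p = 2.40e-09 and 2.29e-09). Pecam1 (chr11:106654217-106750628, - strand) was 8.63-fold and Kdr (chr5:75932827-75978458, - strand) 9.46-fold higher in the heart than in the stomach (edgeR, adjusted p = 7.31e-08 and 3.59e-07). All 8 members were called higher in the heart than in the stomach, where 21.0% of 19731 genes were. Sele reached the cutoff on low counts only in heart and tongue samples, so its call supports nothing about the members. In bulk tissue, fewer endothelial cells and less RNA per endothelial cell cannot be told apart.

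**Figure D1:**
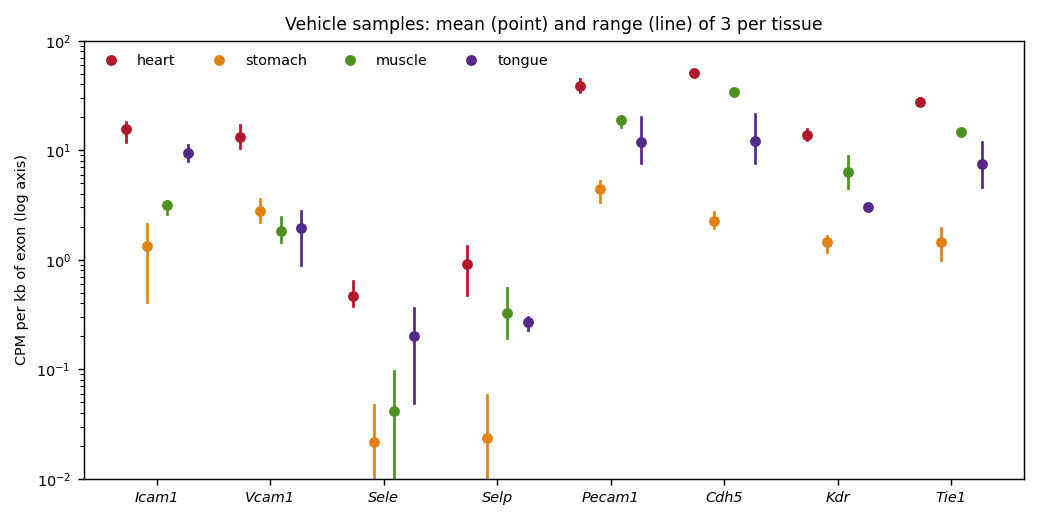
Level of each member in the vehicle samples, as CPM per kb of annotated exon on a log axis. Points are means of 3 samples and lines run from the lowest to the highest sample (cut at the lower axis limit where a sample was at 0). Heart points lie highest for all 8 genes, and muscle points lie above tongue points for the 4 constitutive genes and below them for Icam1.

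Neighbours in this order were not all separate. Cdh5 in heart and muscle differed by a log2 value of 0.58 (edgeR, adjusted p = 0.128), although the samples did not overlap. The Cdh5 difference was called by edgeR with DESeq2's size factors and with library size alone (adjusted p = 0.0455 and 0.00172). DESeq2 called it as well (adjusted p = 0.0399). Pecam1 in muscle (117 ± 14.3 CPM) and tongue (73.8 ± 44.6) overlapped, and this pair had a log2 difference of -0.67 for tongue less muscle (edgeR, adjusted p = 0.0597, and 0.0115 with the replicate number as a block). Kdr in muscle was 57.2 ± 20.5 CPM and in the tongue 27.3 ± 0.847 CPM, a called difference (edgeR, adjusted p = 0.0120). With library size alone as the scaling, the Pecam1 difference turned to 0.17. That scaling moved the median of all genes for tongue less muscle from 0.08 to 0.88.

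The inducible genes followed other orders. Icam1 (chr9:21015985-21028817, + strand), the ligand of the leukocyte integrins LFA-1 and Mac-1, was at 79.2, 51.9 and 72.0 CPM in the heart, 35.1, 49.0 and 38.4 in the tongue, 14.7, 11.3 and 14.9 in muscle, and 1.80, 6.47 and 9.32 in the stomach. No 2 neighbouring tissues overlapped. The heart and tongue did not pass the test (log2 difference 0.73 ± 0.38 (SE), edgeR, adjusted p = 0.163), while the tongue was 2.99-fold above muscle and muscle 2.30-fold above the stomach (edgeR, adjusted p = 0.00302 and 0.0153). On this scaling muscle held less Icam1 but more Cdh5, Kdr and Tie1 than the tongue, and with library size alone the log2 differences of those 3 for tongue less muscle were -0.62, -0.26 and -0.14, none of them called. The tongue was called higher than muscle for 1 member and lower for 3, against 20.0% and 18.1% of all genes. The call of Icam1 between muscle and stomach was lost with library size alone (log2 difference 0.30), with DESeq2's size factors and with DESeq2 itself (0.95 in both) and without vehicle replicate 1 (log2 difference 0.73).

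Vcam1 (chr3:116109949-116129688, - strand), the ligand of the integrin VLA-4, was highest in the heart, at 118 ± 29.7 CPM. The stomach held 24.6 ± 6.43 CPM, the tongue 17.2 ± 8.51 and muscle 16.1 ± 4.97. The heart was 4.80-fold above the stomach (edgeR, adjusted p = 8.13e-05). The stomach, tongue and muscle overlapped and no pair among them passed the test (edgeR, adjusted p = 0.182 to 0.873). With library size alone as the scaling, Vcam1 was called lower in muscle than in the stomach (log2 difference -1.36, edgeR, adjusted p = 0.00563). Vcam1 was the one member for which the stomach was not the lowest tissue.

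The selectins were scarce. Selp (chr1:164115264-164150026, + strand) was at 5.94, 2.09 and 4.03 CPM in the heart, 0.851, 2.43 and 1.02 in muscle and 1.28, 1.33 and 1.00 in the tongue. In the stomach it was at 0.0, 0.0522 and 0.259 CPM, with only the third sample above the value of 3 counts. No pair of the first 3 tissues passed the test (edgeR, adjusted p = 0.0703 to 0.817), although every heart sample lay above every tongue sample (log2 difference 1.73 ± 0.70). DESeq2 called the heart above the tongue and above muscle (adjusted p = 0.0158 and 0.0250), and edgeR with library size alone called the heart above muscle (adjusted p = 0.0156). Each of the 3 was called higher than the stomach (edgeR, adjusted p = 8.76e-05, 0.00145 and 0.00372). Sele (chr1:164048234-164057677, + strand), which sits beside Selp on the same chromosome, was at 1.36 ± 0.439 CPM in the heart and 0.591 ± 0.454 CPM in the tongue. It had 4 counts in all in the 3 muscle samples and 3 in the stomach.

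Per kb of exon, the constitutive genes exceeded the inducible ones in the heart, except that Kdr lay below Icam1. Mean heart levels were 50.5 CPM per kb for Cdh5, 38.4 for Pecam1, 27.6 for Tie1 and 13.7 for Kdr, beside 15.5 for Icam1, 13.3 for Vcam1, 0.911 for Selp and 0.466 for Sele. In the stomach Vcam1 (2.78 CPM per kb) lay above Cdh5 (2.25) and below Pecam1 (4.44).

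The second comparison asked whether SN-011 shifted these genes within a tissue. CPM values from here on were scaled within each tissue. No member passed an adjusted p of 0.05 in any tissue (edgeR). At that threshold 137 of 16151 genes were called in the heart (0.848%), 0 of 17031 in the stomach (0.0%), 2 of 14198 in muscle (0.0141%) and 0 of 16587 in the tongue (0.0%). The counts at an unadjusted p under 0.05 were 3615, 4183, 2095 and 2074. DESeq2 called 1266, 1918, 897 and 391 genes and edgeR's exact test called 918, 1835, 479 and 253. Tested members whose groups did not overlap numbered 4 of 8 in the heart (lower, as 13.0% of all tested genes were) and 3 of 7 in the stomach (higher, 17.8%). They numbered 3 of 6 in muscle (lower, 19.7%) and 3 of 7 in the tongue (lower, 8.35%). Selp in muscle, which was not tested, did not overlap either. A gene entered the test where its level reached a cutoff of 0.590 to 0.623 CPM, depending on the tissue, in 3 samples. Sele in the heart and Selp in the tongue did so only through the vehicle samples, and Selp in the stomach only through the SN-011 samples, so these 3 had to differ and their counts support nothing about the members. The members are described by their values and by unadjusted p, read against the share of all genes at the same mark.

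Selp, the P-selectin gene, had the largest log2 fold change of the members tested in the heart, stomach and tongue. In the heart it was at 6.57, 2.34 and 4.48 CPM with vehicle and 2.08, 1.18 and 1.45 CPM with SN-011. In the tongue it was at 1.53, 1.55 and 1.18 CPM with vehicle and 0.477, 0.0646 and 0.249 CPM with SN-011. No SN-011 sample reached the lowest vehicle sample in either. The log2 fold changes were -1.51 ± 0.42 (SE) in the heart and -2.38 ± 0.61 in the tongue (edgeR, adjusted p = 0.0988 and 0.281). In muscle Selp did not pass the filter on low counts. It had 10, 26 and 12 counts with vehicle and 2, 0 and 1 with SN-011, a ratio of summed counts, corrected for library size, of 0.0666 (95% exact interval 0.0133 to 0.207, counting error only). In the joint fit of all 24 samples, where it was tested, the log2 fold change in muscle was -3.70 ± 0.94 (edgeR, adjusted p = 0.0423), a mark that 2.4% of genes passed. The same fit did not call Selp in the heart or the tongue (edgeR, adjusted p = 0.757 and 0.378).

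In the stomach Selp went the other way. The vehicle samples had 0, 1 and 6 counts and the SN-011 samples 35, 12 and 24 counts, or 2.06, 0.790 and 1.47 CPM. The groups did not overlap, and the log2 fold change was 3.31 ± 1.03 (edgeR, adjusted p = 0.114). In the joint fit it was 3.27 ± 0.83 (edgeR, adjusted p = 0.0133), where 13.9% of genes were called. Without vehicle replicate 1, between male samples, the Selp log2 fold change was -1.15 in the heart, 2.81 in the stomach and -2.33 in the tongue (edgeR, adjusted p = 0.198, 0.133 and 0.0837). Without heart vehicle replicate 2 it was -1.81 (edgeR, adjusted p = 0.0359) in the heart, where 787 genes were called in place of 137. DESeq2 gave Selp an adjusted p of 0.0195 for the heart and 0.0409 for the stomach, and edgeR's exact test gave 0.0319, 0.0115 and 0.0148 in the heart, stomach and tongue.

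**Figure D2:**
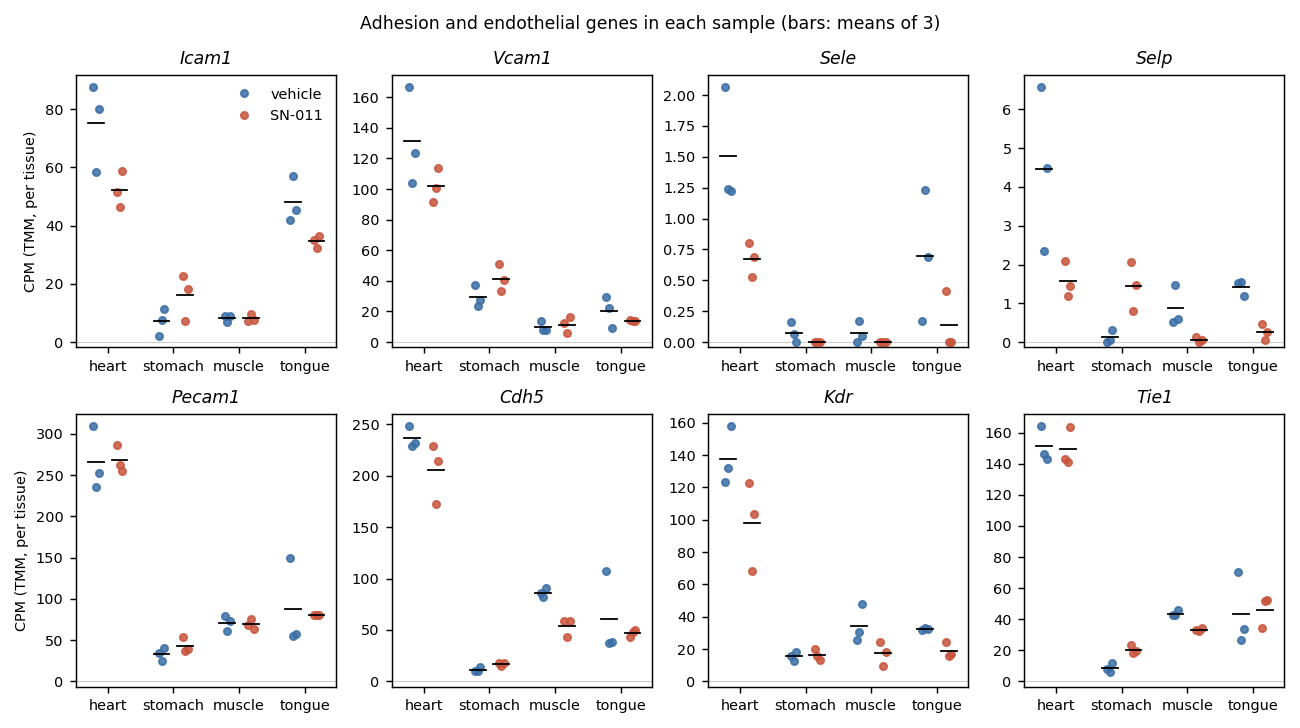
CPM of the 8 members in every sample, by tissue, with vehicle in blue and SN-011 in red and black bars at the means of 3. Each panel has its own linear axis starting at 0. Selp with SN-011 lies below vehicle in heart, muscle and tongue and above it in the stomach, and 1 tongue vehicle sample lies far above the others for Pecam1, Cdh5 and Tie1.

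Sele, the E-selectin gene, is made almost only by activated endothelium. In the fits within a tissue it was tested in the heart alone, at 2.06, 1.24 and 1.23 CPM with vehicle and 0.805, 0.525 and 0.693 CPM with SN-011. These groups did not overlap (log2 fold change -1.16 ± 0.42, edgeR, adjusted p = 0.157), on 79 counts in all with vehicle and 31 with SN-011. In the tongue it had 3, 19 and 11 counts with vehicle and 7, 0 and 0 with SN-011, and the groups overlapped. In muscle and stomach all 6 SN-011 samples were at 0, beside 4 and 3 counts summed over vehicle, too few to give a fold. The joint fit called Sele in none of the 4 tissues (edgeR, adjusted p = 0.961 for heart, 0.283 for stomach, 0.348 for muscle and 0.746 for tongue).

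Icam1 in the heart was at 87.6, 58.3 and 80.2 CPM with vehicle and 51.6, 46.6 and 58.8 CPM with SN-011. The highest SN-011 sample lay just above the lowest vehicle sample (log2 fold change -0.53 ± 0.16, edgeR, adjusted p = 0.119). In the tongue it was at 41.9, 57.2 and 45.4 CPM against 35.1, 32.4 and 36.6 CPM, with no overlap (-0.47 ± 0.16, edgeR, adjusted p = 0.342). Without vehicle replicate 1 the tongue value was -0.56 (edgeR, adjusted p = 0.0421), and without heart vehicle replicate 2 the heart value was -0.68 (edgeR, adjusted p = 0.0359). The heart difference was also called by DESeq2 (adjusted p = 0.0450) and by edgeR with no filter (adjusted p = 0.00898). In muscle Icam1 was at 8.27 ± 1.25 CPM with vehicle and 8.26 ± 1.33 CPM with SN-011. In the stomach it was at 2.10, 7.72 and 11.5 CPM with vehicle and 22.6, 7.24 and 18.4 CPM with SN-011, and the groups overlapped (1.17 ± 0.62, edgeR, adjusted p = 0.281).

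Vcam1 overlapped between the groups in all 4 tissues. Its mean went from 131 CPM with vehicle to 102 CPM with SN-011 for the heart, and the pairs of means were 29.4 and 41.5 CPM for the stomach, 9.82 and 11.5 for muscle and 20.4 and 14.03 for the tongue. Its adjusted p was 0.255 to 0.833 (edgeR). Of the 4 inducible genes, Icam1, Sele and Selp had an unadjusted p under 0.05 and were lower with SN-011 in the heart, where 11.6% of all genes were. Icam1 and Selp did so in the tongue, where 7.33% were. Sele in the heart and Selp in the tongue entered the test only through their vehicle samples, so neither is support. That leaves Icam1 and Selp in the heart and Icam1 in the tongue.

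**Figure D3:**
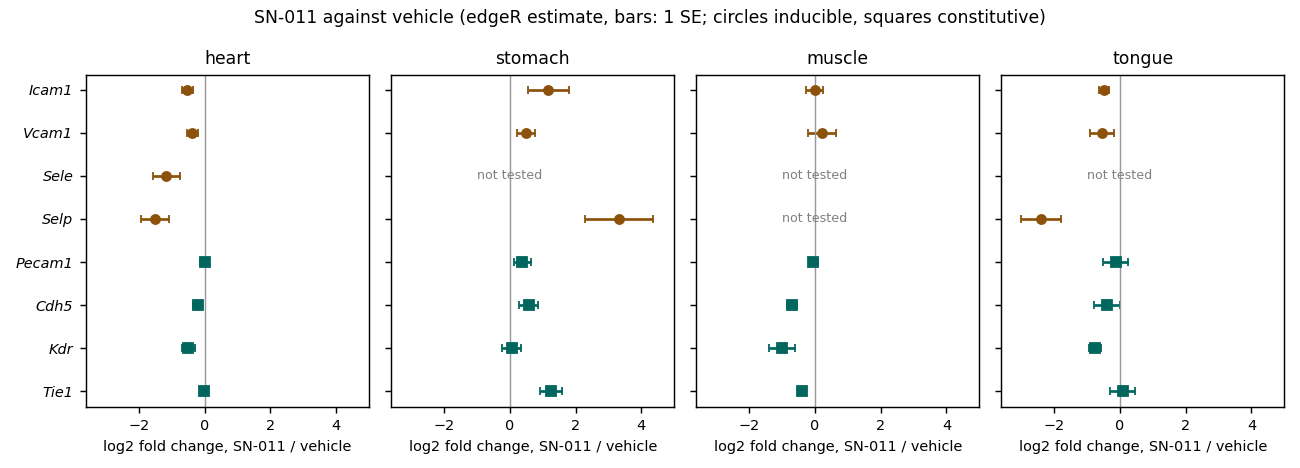
Log2 fold change of SN-011 over vehicle for each member in each tissue (edgeR estimate), with bars of 1 SE, circles for inducible and squares for constitutive genes. Members under the count filter are marked as not tested. Selp stands at -1.51 in the heart, 3.31 in the stomach and -2.38 in the tongue, while Pecam1 stays between -0.12 and 0.39.

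The constitutive genes did not move as a block. Pecam1, the junctional CD31, was at 266 ± 39.1 and 268 ± 16.5 CPM in the heart (vehicle and SN-011), 33.2 ± 7.71 and 43.5 ± 9.30 in the stomach and 71.2 ± 9.26 and 69.1 ± 5.89 in muscle. The groups overlapped in each. In the tongue it was at 150, 55.3 and 57.6 CPM with vehicle and 80.5, 80.7 and 80.02 CPM with SN-011, so the first vehicle sample set the mean. Without that sample the log2 fold change turned from -0.12 to 0.51 (edgeR, adjusted p = 0.0270), with 2135 genes called in all in place of 0. Cdh5 and Tie1 were high in the same tongue sample (107 and 70.2 CPM, against 37.5 to 38.6 and 26.6 to 33.7 in the other vehicle samples).

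Kdr was at 123, 132 and 158 CPM with vehicle and 123, 68.3 and 103 CPM with SN-011 in the heart. In the tongue it was at 31.6, 32.9 and 32.2 CPM with vehicle and 24.1, 15.8 and 17.0 CPM with SN-011. In muscle it was at 25.3, 30.5 and 47.7 against 24.4, 9.28 and 18.1 CPM. The groups did not overlap in these 3 tissues, with SN-011 lower, though by under 1 CPM in the heart and muscle. The log2 fold changes were -0.49 ± 0.20, -0.76 ± 0.19 and -0.996 ± 0.399 (edgeR, adjusted p = 0.197, 0.271 and 0.326). Without tongue vehicle replicate 1 the tongue value was -0.78 (edgeR, adjusted p = 0.0403), and without muscle SN-011 replicate 2 the muscle value was -0.70 (edgeR, adjusted p = 0.158). DESeq2 called Kdr in the tongue (adjusted p = 0.0485) and edgeR with no filter called it in the heart (adjusted p = 0.0235). Unlike Pecam1, Cdh5 and Tie1, Kdr was not high in the first tongue vehicle sample. In the stomach its groups overlapped, at 15.7 ± 2.92 and 16.4 ± 3.57 CPM.

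Cdh5 and Tie1 were lower with SN-011 in muscle and higher in the stomach. Cdh5 in muscle was at 85.9, 81.7 and 91.1 CPM with vehicle and 58.3, 43.3 and 58.6 CPM with SN-011 (log2 fold change -0.69 ± 0.15, edgeR, adjusted p = 0.149). Without muscle SN-011 replicate 2, the library with few genes, it was -0.56 (edgeR, adjusted p = 0.0340), where 1103 genes were called in place of 2. DESeq2 and edgeR's exact test called Cdh5 in muscle on all 6 samples (adjusted p = 0.00277 and 0.0296). Tie1 in the stomach was at 7.98, 5.85 and 11.9 CPM with vehicle and 23.6, 18.2 and 19.4 CPM with SN-011. These groups were well apart (1.25 ± 0.33, edgeR, adjusted p = 0.0920, and 0.00744 in the joint fit). Other settings called it as well (adjusted p = 0.0246 with DESeq2, and with edgeR 0.0216 by the exact test and 0.0416 with no filter). Tie1 in muscle was at 42.6, 42.7 and 45.7 against 33.1, 32.5 and 34.3 CPM (-0.39 ± 0.11, edgeR, adjusted p = 0.218, and 0.0141 with DESeq2). Cdh5 in the stomach was at 10.2, 9.71 and 14.3 against 18.3, 15.2 and 17.5 CPM (0.58 ± 0.28, edgeR, adjusted p = 0.244). Cdh5 was also lower with SN-011 in the heart without overlap, by under 1 CPM, at 248.2, 228.9 and 232.2 against 228.6, 172 and 215 CPM (-0.21 ± 0.13, edgeR, adjusted p = 0.398). Of the 4 constitutive genes, 3 were lower in muscle at an unadjusted p under 0.05, where 5.8% of all genes were, and 1 was higher in the stomach, where 13.2% were. Kdr alone was lower at that mark in the heart, beside 11.6% of all genes, and in the tongue, beside 7.33%.

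Whether the response differed between tissues was tested in the joint model. Selp passed (edgeR, 3 degrees of freedom, adjusted p = 0.0156), as 2.32% of 19731 genes did, and no other member did (adjusted p = 0.0697 for Tie1, 0.190 for Icam1, 0.225 for Cdh5, 0.450 for Kdr, 0.549 for Vcam1, 0.745 for Sele and 0.815 for Pecam1). The Selp response was lower than that of the stomach in each of the other tissues, with differences of log2 fold changes of -4.79 ± 1.09 in the heart, -5.66 ± 1.14 in the tongue and -6.98 ± 1.26 in muscle (edgeR, adjusted p = 0.0288, 0.0330 and 0.00392, marks that 2.01%, 0.821% and 6.95% of genes passed). These differences share the stomach samples, and the sizes rest on 7 counts in the stomach vehicle group. Heart, muscle and tongue did not pass a test against each other. Tie1 differed between muscle and stomach alone (-1.70 ± 0.39, edgeR, adjusted p = 0.0149). The Selp call was lost without SN-011 replicate 1, vehicle replicate 2 or SN-011 replicate 3 in every tissue (edgeR, adjusted p = 0.237, 0.188 and 0.193), settings in which 0, 0 and 3 genes were called in place of 458. The heart difference was also not called without vehicle replicate 1 (edgeR, adjusted p = 0.0895). The Tie1 difference was not called without SN-011 replicate 1, vehicle replicate 2 or SN-011 replicate 3 (edgeR, adjusted p = 0.124, 0.0718 and 0.0790). All 3 Selp differences kept their sign in each of the 6 settings that left out 1 numbered replicate.

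To set inducible against constitutive genes within a sample, the mean log2 CPM of the 4 constitutive genes was taken from that of the 4 inducible ones. This index has no test. In the heart it was -3.23, -3.95 and -3.63 with vehicle and -4.27, -4.27 and -4.24 with SN-011, and in muscle -5.62, -4.68 and -5.55 against -5.92, -6.29 and -5.92. The SN-011 samples lay below vehicle in both tissues, by 0.66 and 0.76 between the means. In the tongue the means were -3.22 ± 0.875 and -4.58 ± 0.833 and in the stomach -3.72 ± 0.378 and -3.24 ± 0.318, and the samples overlapped. With Icam1 and Vcam1 alone the heart difference was -0.24 and its groups overlapped, and with a prior count of 2 in place of 0.5 the muscle difference was -0.28. The muscle value turned with the genes used: Icam1 and Vcam1 alone gave -2.23, -2.78 and -2.87 with vehicle and -2.16, -2.06 and -1.80 with SN-011, a difference of 0.62 upward without overlap. The constitutive mean itself was lower there by 0.64. For Selp alone, relative to the constitutive genes, the groups did not overlap in any tissue, with differences of -1.22 in the heart, -3.14 in muscle, -2.38 in the tongue and 3.11 in the stomach.

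**Figure D4:**
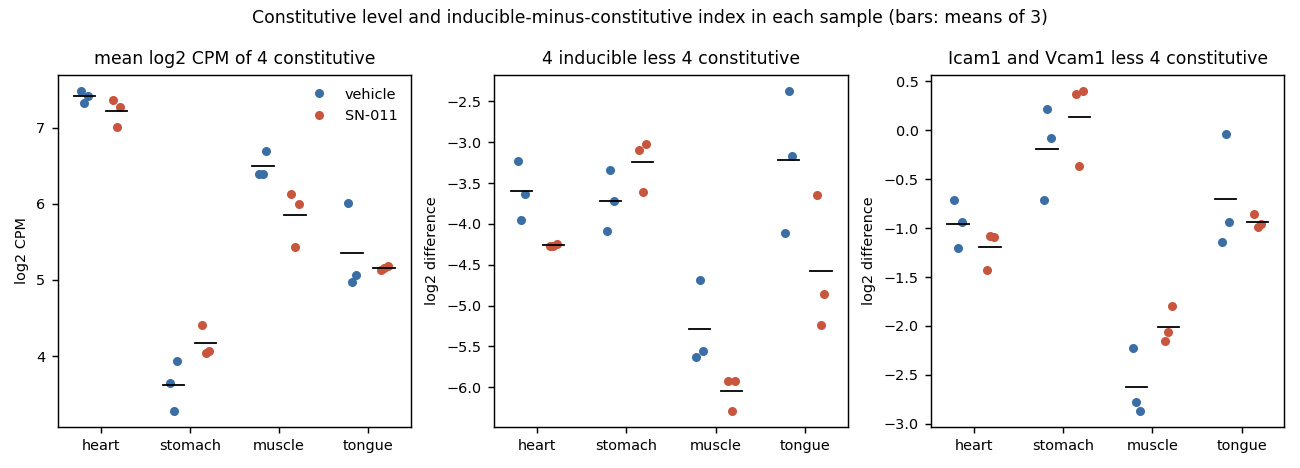
Mean log2 CPM of the 4 constitutive genes (left), the index of 4 inducible less 4 constitutive genes (middle) and the same with Icam1 and Vcam1 only (right), in every sample by tissue, with bars at the means of 3. In muscle the middle panel puts SN-011 lower and the right panel puts it higher, by 0.62.

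Other genes of the same biology were read from 6 lists, described by counts and medians. At an unadjusted p under 0.05, 10.8% of all heart genes were higher and 11.6% lower. These shares were 13.2% higher and 11.4% lower for the stomach and 8.96% higher and 5.8% lower for muscle, and 7.33% of tongue genes were lower. Of 24 endothelial identity genes, 13 had an unadjusted p under 0.05 in the stomach, all higher with SN-011, and the list median was 0.93 beside 0.0043 over all genes. Sox17, an arterial transcription factor, led with 2.07 ± 0.241 CPM in vehicle and 8.76 ± 1.09 CPM in SN-011 samples. In the heart 6 of the 24 were higher and 3 lower (median 0.19), and Aplnr, the apelin receptor, was the one gene of the 6 lists to pass the test in any tissue. It was at 24.1, 37.1 and 59.3 CPM with vehicle and 12.5, 12.02 and 6.99 CPM with SN-011 (log2 fold change -1.94 ± 0.34, edgeR, adjusted p = 0.0403). Aplnr also led in the tongue (-1.24 ± 0.31, edgeR, adjusted p = 0.278), where none of the other 23 had an unadjusted p under 0.05. In muscle 5 were higher and 3 lower, led by Ramp2, a receptor partner of adrenomedullin, at 21.02 ± 3.63 and 37.7 ± 6.06 CPM.

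The cytokine and NF-kB list mixes cytokine and NF-kB genes with chemokines such as Ccl2, so it does not measure upstream signals alone. At an unadjusted p under 0.05 it had 8 of 18 tested genes lower in the heart (11.6% of all genes) and 10 of 19 in the tongue (7.33%). None was higher in either, and the medians were -0.39 and -0.53. Ccl2, a monocyte chemoattractant, led in the heart at 22.3, 13.6 and 30.5 CPM against 6.84, 3.74 and 8.50 CPM (edgeR, adjusted p = 0.0544). Relb, an NF-kB subunit, led in the tongue at 47.0 ± 7.03 and 29.6 ± 2.23 CPM. In muscle 1 of 14 was lower (Irf1) and in the stomach 1 of 17 was lower (Cx3cl1, an endothelial chemokine, 41.5 ± 11.7 and 20.8 ± 4.19 CPM) and 1 higher. Neither tissue had a median far from that of all genes (-0.19 beside -0.084 in muscle and 0.14 in the stomach).

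The leukocyte partners of the adhesion molecules, such as the selectin ligand Selplg and the integrins, had 4 of 12 lower in the heart (11.6% of all genes), none in the tongue, and 1 in muscle (Itga4, a subunit of VLA-4). The heart was led by Spn at 62.0 ± 12.99 and 37.9 ± 8.59 CPM and the tongue by Itgax at 31.2 ± 12.3 and 19.99 ± 6.74 CPM. In the stomach 3 were lower and 1 higher, Itgam at 2.81 ± 1.20 and 20.8 ± 16.6 CPM. Genes of selectin ligand synthesis were below 0 in 10 of 10 cases in the heart (median -0.31), with 2 at an unadjusted p under 0.05, led by the sulfotransferase Chst2 at 7.83 ± 1.48 and 3.47 ± 0.507 CPM. B4galt1, a galactosyltransferase, was higher in muscle at 47.5 ± 4.14 and 121 ± 8.57 CPM (edgeR, adjusted p = 0.0584). Chst4 was higher in the stomach (2.32 ± 0.879 and 7.49 ± 3.05 CPM) and Fut4 lower in the tongue (2.79 ± 1.81 and 0.760 ± 0.267 CPM), each with 1 gene of its list in that direction.

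Other adhesion and junction molecules had medians of -0.024 in the heart, -0.26 in the stomach, -0.69 in muscle and -0.38 in the tongue. At an unadjusted p under 0.05, 1 of 10 was higher and 1 lower in the heart, 2 of 12 were higher and 2 lower in the stomach, and 2 of 9 in muscle and 2 of 10 in the tongue were lower with none higher. Alcam led in heart and stomach (12.6 ± 1.75 and 6.96 ± 1.24 CPM, and 124 ± 13.6 and 60.9 ± 20.5 CPM), the endothelial claudin Cldn5 in muscle (46.8 ± 8.47 and 27.6 ± 8.44 CPM) and Nectin2 in the tongue (37.1 ± 6.53 and 24.4 ± 0.976 CPM). VEGF and angiopoietin genes had 3 of 13 higher and 4 lower in the heart, led by Vegfa at 226 ± 25.4 and 384 ± 66.6 CPM, opposite to its receptor Kdr. Vegfd led in muscle (8.57 ± 2.96 and 26.0 ± 3.34 CPM), Flt1 in the stomach (9.59 ± 3.07 and 24.5 ± 3.20 CPM, with 3 of 12 higher) and Nrp2 in the tongue (33.5 ± 5.89 and 21.2 ± 2.59 CPM, with 2 of 12 lower).

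**Figure D5:**
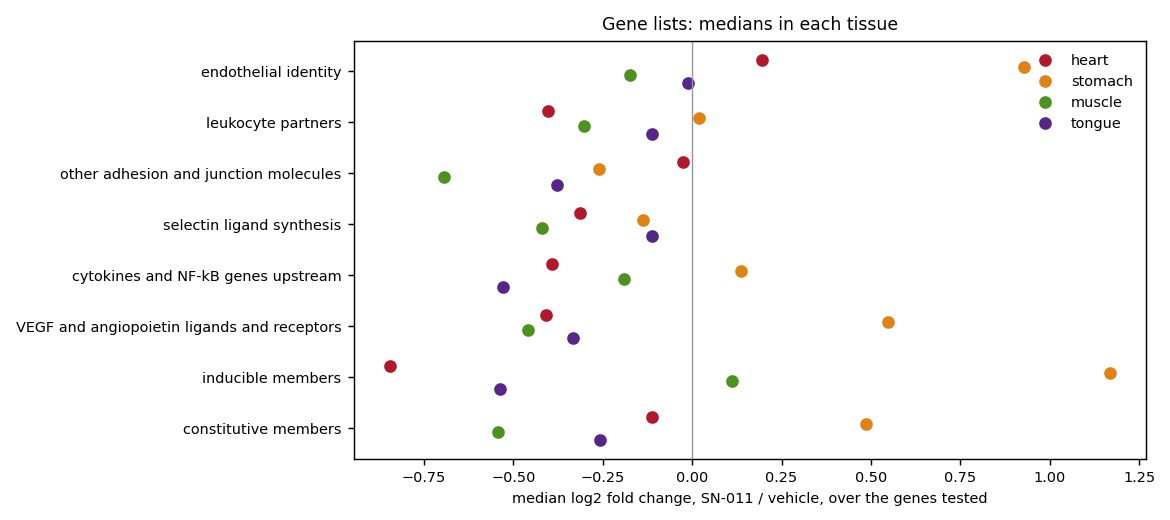
Median log2 fold change of SN-011 over vehicle over the tested genes of 6 lists and of the 2 member sets, 1 point per tissue. The stomach lies furthest right for endothelial identity (0.93), and the heart and tongue lie left of 0 for the cytokine and NF-kB list (-0.39 and -0.53).

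Markers of other cells moved with some of these results, and their part in them was not tested. In the stomach, 12 mural and fibroblast markers summed to 1419 to 5580 CPM with vehicle and 4692 to 9782 CPM with SN-011, 5 squamous epithelial keratins to 110 to 235 CPM against 439 to 1453 CPM, and 6 gastric epithelial genes to 28320 to 95162 CPM against 5626 to 34770 CPM. None of these markers was at 0 in the stomach. Platelet markers, 9 genes with Gp1bb at 0 throughout, summed to 21.8 to 23.0 CPM with vehicle and 32.0 to 39.0 CPM with SN-011 in the heart, and Ppbp rose there (edgeR, adjusted p = 0.0454). Platelet markers were 17.0 to 21.5 against 20.8 to 22.5 CPM in muscle, 39.0 to 68.8 against 56.8 to 64.7 in the tongue, and 10.5 to 22.2 against 18.1 to 32.0 in the stomach, where Itga2b was at 6.10 ± 2.13 and 14.4 ± 3.40 CPM (edgeR, adjusted p = 0.106). Leukocyte markers (13 genes) summed to 1017 to 1801 CPM with vehicle and 1072 to 1391 with SN-011 in the heart, and overlapped in the other tissues too. In muscle the mural and fibroblast sum was 981 to 1241 CPM with vehicle and 638 to 835 CPM with SN-011, beside the lower Cdh5, Kdr and Tie1. The 24 endothelial identity genes summed to 547 to 633 CPM there with vehicle and 627 to 721 CPM with SN-011, with overlap. Of these genes, 14 had a negative log2 fold change, with a median of -0.17 beside -0.084 over all genes. In the heart Lum, a fibroblast proteoglycan, fell by 0.90 on the log2 scale (edgeR, adjusted p = 0.0481).

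Of the remaining marker lists, 5 lymphatic genes summed to 99.6 to 131 CPM with vehicle and 82.6 to 121 CPM with SN-011 in the heart and to 21.7 to 54.7 against 44.3 to 100 CPM in the stomach, and 5 erythroid genes had positive log2 fold changes in every tissue (medians 1.06 to 1.55). Each tissue held the most of its own markers. Cardiac genes summed to 25113 to 44037 CPM in heart libraries and to at most 251 CPM elsewhere. Skeletal muscle genes summed to at least 118591 CPM in muscle, and squamous keratins to at least 13222 CPM in the tongue. Markers of other tissues were also present. Gastric genes reached 1085 CPM in vehicle heart and 426 CPM in vehicle muscle, and keratins 1453 CPM in SN-011 stomach. In heart and muscle, Krt5 and Krt6a were at 0. The gastric genes in the tongue summed to 43.9 CPM in vehicle replicate 1, beside 1510 and 1495 CPM in replicates 2 and 3, while Selp was 1.53, 1.55 and 1.18 CPM in these samples.

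Across the 24 samples, which share tissues and replicate numbers, Pecam1, Cdh5 and Tie1 followed each other closely (Pearson r = 0.970 to 0.975, log2 CPM), and Kdr was nearest to Cdh5 (0.885). The inducible genes were less alike (0.418 for Icam1 with Vcam1 to 0.664 for Icam1 with Selp). Pairs of an inducible and a constitutive gene ranged as widely, from 0.429 for Vcam1 with Cdh5 to 0.728 for Icam1 with Tie1. Among 15828 genes, those most like Cdh5 were Afap1l1 (0.987), Tie1 and St6galnac4 (0.970), those most like Tie1 were Ushbp1 (0.988), Lamb2 (0.984) and Cdh5, and those most like Pecam1 were Mmrn2 (0.979), Adprhl1 (0.972) and Tie1. Kdr was most like Plxnd1 (0.956), Glg1 (0.948) and Gm10435 (0.943). Icam1 was most like Ccr2 (0.916), Lacc1 (0.916) and Il10ra (0.915), and Sele like H2-DMb1 (0.869), Irgm1 (0.861) and Cd74 (0.856), which are known in immune cells. Vcam1 was most like Lhfp (0.940) and Clic4 (0.940), and Selp like Mest (0.860), Gm17552 (0.844) and Pik3ap1 (0.836).

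Genes that overlap the members had few counts. Icam1, Vcam1 and Selp share exon bases with antisense genes (Gm47079 for Icam1, Gm43109 for Vcam1, Gm16587 and Gm16548 for Selp), which had 25, 1, 8 and 13 counts summed over all 24 samples. Whether the counting used strand is not given in the sources used here, so reads in the shared bases cannot be assigned with certainty.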

How the data were processed

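RNA-Seq was performed on 24 samples, 3 per tissue and treatment. The authors deposited whole-number read counts per gene, made with HISAT2 and HTSeq on mm10 per the labels' processing notes. The study's methods instead name Trimmomatic, HISAT2, featureCounts and another sequencer, so the counting program and its strand setting are not settled. The treatment schedule also differs between labels and methods. Whether samples with one number came from one mouse is not given in the sources used here.

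Gene identifiers were matched to GENCODE M21 (54495 of 54532). The 8 members and the gene lists were chosen with earlier results of these data known. Samples of each tissue were fitted separately in edgeR 4.0.16 (R 4.3.3) with TMM scaling, filterByExpr (minimum count 10, minimum total 15) and the quasi-likelihood test, SN-011 against vehicle, without a replicate block (edgeR is also the study's tool). P-values were adjusted over all genes tested by the Benjamini-Hochberg procedure at 0.05. A joint fit of the 24 samples (19731 genes) compared tissues and tested the treatment by tissue interaction. P-values measure the spread between these samples. Log2 CPM used a prior count of 0.5, and CPM per kb used the union of annotated exons. Standard errors are those of the fitted log2 fold changes. Exact intervals of 95% for summed counts, and the level of 3 counts, cover counting error only.

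Named genes were the 8 members, list genes past the adjusted p of 0.05, the gene of each list with the smallest unadjusted p in each tissue, and the 3 genes most correlated with each member among those with a mean of at least 1 CPM. For Vcam1, 1 of these is not reported here. Alternatives were other scalings (library size alone, DESeq2's size factors), other filters (none, 10 counts in every sample), DESeq2 1.42.0, edgeR's exact test, a replicate block, the joint fit and leaving out each replicate. The fits were tested on simulated data. No pair of libraries held identical values.

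Replicate numbers are shared by the groups. Deviations from group means (genes of at least 10 CPM) of same-numbered vehicle and SN-011 samples had mean correlations of -0.075, 0.070, 0.022 and -0.313 in heart, stomach, muscle and tongue, so these samples share only a number. Between vehicle samples, every same-numbered pair exceeded 0.1 for heart with muscle (lowest 0.223), heart with tongue (0.119) and tongue with muscle (0.184). Same-numbered vehicle samples of these tissues were thus alike. Vehicle replicate 1 was female in each tissue, so a shared mouse and shared sex cannot be told apart here. Promoter windows were read from RefSeq (GRCm38.p6).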

Additional observations from a re-analysis of the deposited data

Results flagged for a closer look

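The response of Selp to SN-011 differed between tissues in the joint fit (edgeR, adjusted p = 0.0156). Its log2 fold change was 4.79 lower in the heart than in the stomach (a difference of -4.79), with all 3 SN-011 samples below vehicle in the heart and above it in the stomach. The same difference was -5.66 for the tongue and -6.98 for muscle, again with no overlap of groups in either tissue. Within a tissue, Selp passed the cutoff on low counts in the tongue only through vehicle and in the stomach only through SN-011. The lack of overlap in the tongue and stomach is therefore not support, and in muscle Selp was not tested within the tissue. The contrasts share the stomach samples, which held 7 counts of Selp in all with vehicle and 71 with SN-011. The Tie1 response differed between muscle and stomach by -1.70, with all SN-011 samples lower than vehicle in muscle and higher in the stomach. Neither the Selp interaction call nor this Tie1 call held without SN-011 replicate 1, vehicle replicate 2 or SN-011 replicate 3.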

How the results depend on the processing

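Of 221 log2 fold changes of the members under SN-011 with another setting, 200 kept their direction and side of the threshold, 18 became called and 3 turned sign. Of 168 with 1 replicate left out, 142 held, 5 became called and 21 turned sign. Of 288 tissue differences 268 held, 10 became called, 8 lost the call and 2 turned sign. Of 144 such differences with 1 replicate left out, 123 held, 2 became called, 16 lost the call and 3 turned sign. Scaling by library size alone moved the median log2 fold change of all genes from -0.010 to -0.16 in the heart, from 0.0043 to 0.18 in the stomach and from -0.084 to -0.31 in muscle. The cause of these changes was not tested.

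The sign turned for Pecam1 in the heart with library size alone (-0.15) and no filter (-0.013), in the tongue with the replicate block (0.047), and for tongue less muscle with library size alone (Pecam1 0.17, Selp 0.57). Leaving out 1 replicate gave -0.070 to 0.12 for Pecam1 and -0.10 to 0.029 for Tie1 in the heart, -0.12 to 0.19 for Kdr in the stomach, -0.14 to 0.077 for Icam1, -0.10 to 0.54 for Vcam1 and -0.15 to 0.033 for Pecam1 in muscle, and -0.37 to 0.51 for Pecam1, -0.65 to 0.30 for Cdh5 and -0.17 to 0.62 for Tie1 in the tongue. For tongue less muscle it gave -0.13 to 0.33 for Vcam1 and -0.56 to 0.29 for Selp, and for muscle less stomach -0.43 to 2.57 for Sele.

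Genes called in the heart (137) became 249 with library size alone, 1888 with no filter, 265 with 10 counts in every sample, 1266 with DESeq2, 918 with the exact test and 1 in the joint fit. In the stomach (0) they became 1368 with no filter, 126 with 10 counts in every sample, 1918 with DESeq2, 1835 with the exact test and 2738 in the joint fit. In muscle (2) they became 1 with DESeq2's size factors, 1 with library size alone, 110 with no filter, 75 with 10 counts in every sample, 897 with DESeq2, 479 with the exact test and 474 in the joint fit. In the tongue (0) they became 18 with no filter, 391 with DESeq2, 253 with the exact test and 4 in the joint fit. The interaction (458) gave 691 with library size alone. Without 1 replicate the heart had 1 to 787 called genes, the stomach 0 to 64, muscle 0 to 1103 (1103 without SN-011 replicate 2), the tongue 0 to 2135 (2135 without vehicle replicate 1) and the interaction 0 to 1236. For tissue pairs they were 5859 to 6732 for heart and stomach, 4012 to 4975 for heart and muscle, 3330 to 4623 for heart and tongue, 5017 to 5916 for tongue and stomach, 4876 to 6605 for tongue and muscle and 7577 to 8743 for muscle and stomach.

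With the replicate block, 242 genes were called in the heart, 181 in the stomach, 0 in muscle, 0 in the tongue and 368 for the interaction. Between tissues the block gave 8142, 6418, 5479, 6951, 7350 and 9893 genes in the same order of pairs. It changed no call of a member other than Pecam1 between tongue and muscle.

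The index of inducible less constitutive genes became 1.25 in the stomach without Sele and 1.57 with medians, and -0.28 in muscle with a prior count of 2 and -1.53 with medians. With Icam1 and Vcam1 only, an alternative chosen after seeing the data, it was -0.24 in the heart, 0.62 in muscle and -0.23 in the tongue. Without 1 replicate the heart index ran from -0.83 to -0.47, that of the stomach from 0.28 to 0.66, that of muscle from -0.93 to -0.46 and that of the tongue from -1.83 to -0.94.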
